A study of Mus musculus with 12 samples.

Results

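The 10 genes described here are 9 antioxidant genes known as targets of the transcription factor NRF2 and the gene of NRF2 itself: Hmox1, Nqo1, Gclc, Gclm, Srxn1, Txnrd1, Prdx1, Slc7a11, Gsta4 and Nfe2l2. They were taken by name, not by their values, and are 10 of the 31053 genes listed in the single-cell RNA sequencing of the stromal vascular fraction (SVF) of epididymal (eWAT) and inguinal (iWAT) white adipose tissue. The SVF is what collagenase digestion leaves once the floating adipocytes are taken off. Each depot had 6 libraries, a pair from each of 3 groups, 12 in all, and each is labelled as a biological replicate. WT-Veh mice were lean C57BL/6J males given vehicle, ob/ob-Veh mice were Lepob/Lepob males, obese because they lack functional leptin, given the same vehicle (methylcellulose), and ob/ob-Rosi mice were Lepob/Lepob males given the PPARγ agonist rosiglitazone (Rosi) at 30 mg/kg. All were 12 weeks old and were dosed by oral gavage for 3 days. No library of WT mice given Rosi was analysed here. The leptin deficiency is whole-body and from birth, so obesity and the missing leptin cannot be told apart in these groups.

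NRF2, encoded by Nfe2l2, is held at a low level by KEAP1, which hands it to a ubiquitin ligase built on CUL3. Oxidants and electrophiles block KEAP1, and NRF2 then pairs with a small MAF protein and binds antioxidant response elements (AREs), which BACH1 otherwise occupies. Its targets make and use the thiols that detoxify peroxides: SLC7A11 imports cystine, GCLC and GCLM are the catalytic and modifier subunits of glutamate-cysteine ligase, the first step of glutathione synthesis, PRDX1 reduces hydrogen peroxide, TXNRD1 keeps its thioredoxin partner reduced, and SRXN1 repairs overoxidised peroxiredoxins. HMOX1 cleaves haem into biliverdin, iron and carbon monoxide, NQO1 reduces quinones, and GSTA4 couples glutathione to lipid aldehydes such as hydroxynonenal. NRF2 protein is controlled mostly after transcription, so the level of Nfe2l2 RNA is no measure of its activity.

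The upstream sequences of Prdx1 and Gclm are shown because these members carry 12 of the 17 calls below and their windows hold a match to the element that NRF2 binds, and that of Srxn1, which was called nowhere, for comparison, since it holds 2 such matches before the start. RefSeq promoter windows (GRCm38.p6, 250 bases before to 50 after the annotated start) were found for 7 of the 10 members. The ARE was searched as TGACNNNGC or TGAGNNNGC and the AP-1 element as TGANTCA, on both strands, and a match to one can overlap a match to the other. An ARE stood in 27.786% of the 32851 windows of this length, an AP-1 element in 7.808% and both in 2.472%. Bases are given 5′ to 3′ on the strand of the gene, up to the base before the first annotated start, with AREs and AP-1 elements in capitals.
Prdx1, chr4:116685349-116685543, plus strand: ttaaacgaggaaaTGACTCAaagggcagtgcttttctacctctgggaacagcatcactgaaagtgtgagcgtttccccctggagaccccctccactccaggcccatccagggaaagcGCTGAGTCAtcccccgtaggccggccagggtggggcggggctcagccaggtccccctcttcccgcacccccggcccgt
Gclm, chr3:122245307-122245556, plus strand: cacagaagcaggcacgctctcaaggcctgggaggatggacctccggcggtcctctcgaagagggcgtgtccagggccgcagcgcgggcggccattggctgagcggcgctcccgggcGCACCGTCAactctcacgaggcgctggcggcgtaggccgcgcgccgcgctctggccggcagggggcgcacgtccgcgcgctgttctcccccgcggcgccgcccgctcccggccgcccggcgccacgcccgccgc
Srxn1, chr2:152105274-152105515, plus strand: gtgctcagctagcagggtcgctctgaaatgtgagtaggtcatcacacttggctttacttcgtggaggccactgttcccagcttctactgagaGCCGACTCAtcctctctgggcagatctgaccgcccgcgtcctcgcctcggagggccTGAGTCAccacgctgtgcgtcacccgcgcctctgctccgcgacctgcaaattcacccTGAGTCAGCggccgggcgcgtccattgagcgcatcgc
Counted from 0 at the RefSeq start, the ARE of Prdx1 shown here began at -133 and overlapped an AP-1 element at -131, and another AP-1 element lay at -237. Gclm had its ARE at -134. Srxn1 had AREs at -158 and -45, the second overlapping an AP-1 element, and a separate AP-1 element at -102, and both Prdx1 and Srxn1 had a further ARE just after the start, not shown. Slc7a11, Nfe2l2 and 1 of the 3 windows of Txnrd1 held an ARE as well, and the window of Nqo1 held none. A match is a description of letters and not a measured binding site. The genes themselves lie (GRCm38, GENCODE) on chromosome 4 at 116685544-116700822 (Prdx1), 3 at 122245557-122270732 (Gclm), 2 at 152105516-152111376 (Srxn1), 8 at 75093621-75100589 (Hmox1) and 107388225-107403206 (Nqo1), 9 at 77754535-77794485 (Gclc) and 78182774-78209349 (Gsta4), 10 at 82833951-82897712 (Txnrd1), 3 at 49892526-50443614 (Slc7a11) and 2 at 75675513-75704641 (Nfe2l2).

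The libraries held 40933057 to 92475986 UMIs in eWAT and 20132553 to 66818914 in iWAT, a UMI being 1 captured RNA molecule, and 57613 and 68482 cells passed the filters. Cells were clustered within each depot without the genes reported here, and clusters were named X-like from marker genes, so that "PVM" below means perivascular macrophage-like, "LAM" lipid-associated macrophage-like, "NPVM" non-perivascular macrophage-like, "EC" endothelial-like, and progenitor and preadipocyte the 2 classes of adipocyte precursor-like cells (APCs). The libraries also differed in make-up: 7610 cells of the iWAT library labelled WT-Veh replicate 1 stayed unnamed, against at most 42 in the other iWAT libraries, and different clusters held most PVMs and APCs in the ob/ob-Veh libraries than in the others. The iWAT EC cluster that held 109 of 109 and 627 of 637 ECs of ob/ob-Veh, and 2113 of 2121 and 2193 of 2205 of ob/ob-Rosi, held 50 of 2495 and 225 of 1146 of WT-Veh, and the values of iWAT ECs below rest on that split. The class of cycling cells was defined by the cell cycle and mixes lineages. NPVMs may hold dendritic cells, and also monocytes, since their marker list included Ly6c2, Ccr2, Plac8 and Chil3. The larger eWAT NPVM cluster, of 3484 cells, had 2 dendritic cell markers among its top 10 genes, as many as NPVM markers. At Leiden resolution 2 a dendritic cell-like cluster of 1264 cells led by Ccr7 and Ccl22 appeared in eWAT. The iWAT cells had no dendritic cell-like class at resolution 1, and resolution 2 gave a cluster of 731 cells. At most 338 barcodes were shared by a pair of libraries (3.29% of the smaller, eWAT ob/ob-Rosi replicate 2 and iWAT WT-Veh replicate 2), where 34.3 would be expected from random draws of the barcode pool. No other pair shared more than 122, where 29.3 would be expected (eWAT ob/ob-Veh replicate 1 and iWAT ob/ob-Rosi replicate 1). The cause of the excess was not tested. Lep, the gene mutated in ob/ob mice, had 4 to 277 UMIs per library and was present in the ob/ob libraries too, since the point mutation leaves a transcript, so it does not check the labels, and the groups are as labelled.

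Levels are given as CPM (counts per 1000000), the UMIs of a gene scaled to a common total for its class and library. Because 10x libraries count 3′ ends, CPM was compared between classes and libraries for one gene and not between genes. The members did not all lead in a single class of the SVF, though several shared a leading class. Hmox1 was highest in PVMs, the haem-clearing resident macrophages, at 1456 ± 276 CPM in eWAT (SD, n = 6 libraries of the 3 groups) and 1210 ± 239 in iWAT (n = 6). In eWAT every PVM value lay above every LAM value, the next class at 574 ± 239 (n = 6), whereas in iWAT the PVM and LAM values overlapped (852 ± 304, n = 5). Prdx1 was highest in LAMs, the class named from markers of lipid-laden macrophages such as Trem2, with 1558 ± 475 CPM in eWAT (n = 6), overlapping the cycling cells, and 1913 ± 382 in iWAT (n = 5), 2.59-fold over the cycling cells there and clear of them. In eWAT the class pooled clusters of 4488, 5076 and 4071 cells, and only the last had LAM markers among its top 10 genes. The name of the rest depended on the resolution. At Leiden resolution 0.5 a cluster of 9994 cells that shared their leading genes stayed unnamed, and at 2 such clusters of 3066 and 3059 cells were named PVM. Nqo1 and Gclm were highest in ECs. Nqo1 had 18.1 ± 5.28 and 29.7 ± 16.1 CPM in the ECs of eWAT and iWAT, overlapping the class that came next in both depots, and Gclm 108 ± 13.1 and 89.7 ± 22.1, clear of the next class, LAMs, in eWAT only (n = 6 each).

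Slc7a11 was a gene of myeloid cells. In eWAT NPVMs had 112 ± 33.6 CPM, 5.60-fold over LAMs and clear of them (n = 6), and the lowest class, progenitors, had 1.14. In iWAT the 4 libraries with enough neutrophil-like cells had 675, 913, 1486 and 837 CPM, 8.92-fold over NPVMs (110 ± 88.3, n = 6) and clear of them. Gsta4 was the most restricted member, at 186 ± 85.2 CPM in eWAT mesothelial-like cells (n = 6), 14.1-fold over mural-like cells and clear of them. Mesothelial-like cells were too few in iWAT for a level, and Gsta4 was at most 1.38 CPM in every iWAT class. Srxn1 was highest in LAMs of both depots, at 63.7 ± 16.7 CPM (n = 6, overlapping preadipocytes) and 136 ± 97.8 (n = 5, clear of progenitors). The iWAT mean was raised by ob/ob-Veh replicate 1, with 28 LAMs and 309 CPM from 48 UMIs, against 80.0 to 114 CPM in the other libraries. Txnrd1 (190 ± 45.3 CPM, n = 6), Nfe2l2 (269 ± 45.7, n = 6) and Gclc (55.0 ± 19.8, n = 6) were highest in NPVMs of eWAT, and in iWAT in LAMs (227 ± 134, n = 5), neutrophil-like cells (272 ± 190, n = 4) and ILC2-like cells (82.7 ± 27.6, n = 5), each overlapping the next class. The same ob/ob-Veh library had 464 CPM of Txnrd1 in iWAT LAMs, from 72 UMIs, against 144 to 193 CPM in the others. With every cell thinned to 700 UMIs the leading class was the same for every member and depot except Gclc in eWAT, which was then highest in PVMs.

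**Figure D1:**
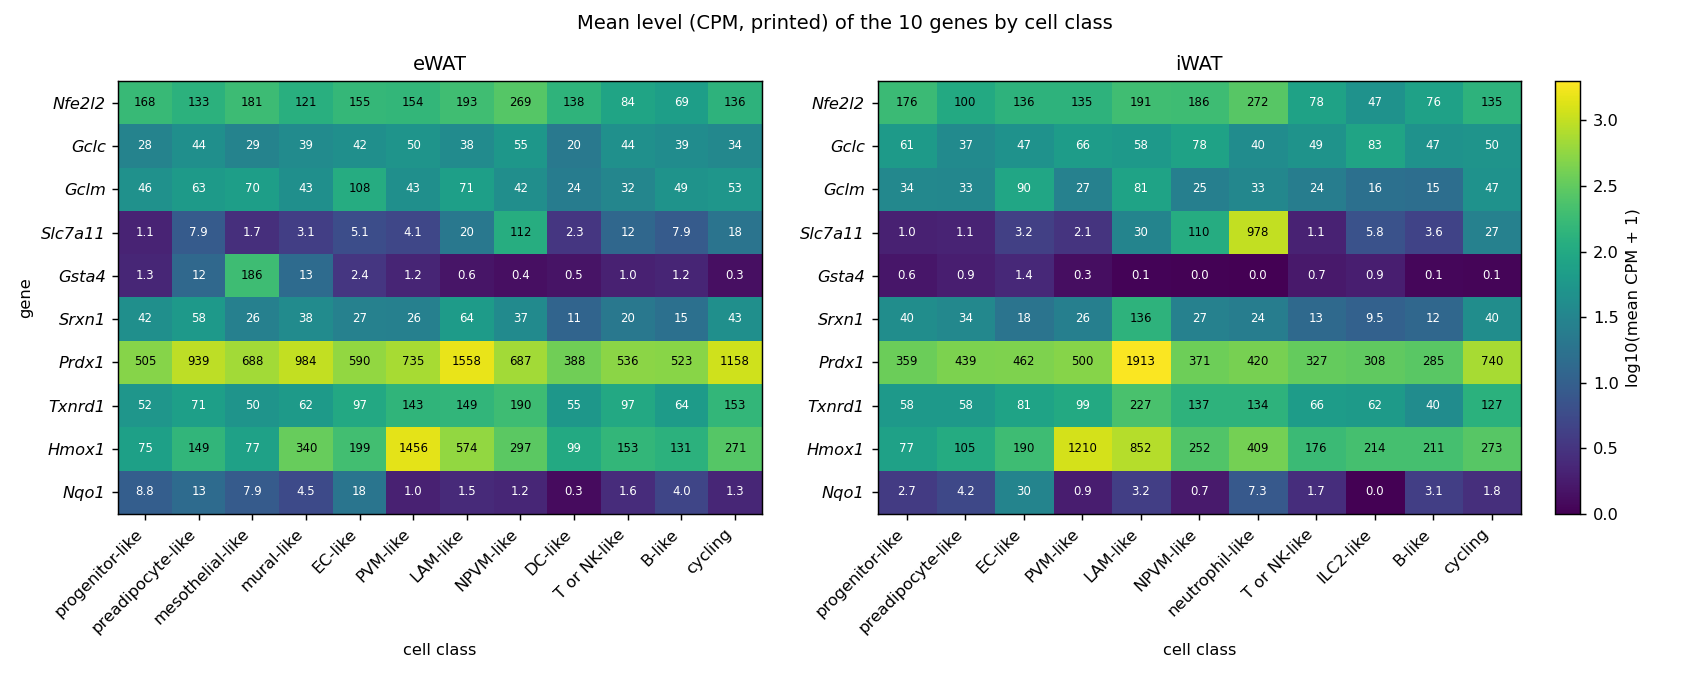
Mean level of each of the 10 genes over the libraries of each cell class of eWAT (left) and iWAT (right), with the CPM printed in each cell and the colour on a log10(CPM + 1) scale. PVMs lead for Hmox1, LAMs for Prdx1 and Srxn1, ECs for Nqo1 and Gclm, and mesothelial-like cells of eWAT for Gsta4.

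The comparisons asked which members differ between obese and lean mice, and which change when ob/ob mice receive Rosi. UMIs were summed per library and class and tested by edgeR's quasi-likelihood test over all genes in the 10 eWAT and 8 iWAT classes with at least 20 cells in every library. A gene counted as called if it changed 1.1-fold or more with a p, adjusted by Benjamini-Hochberg, no higher than 0.05. Both effects use the same ob/ob-Veh libraries, so an opposite sign in them is no independent observation. In eWAT 2 of 81 tested pairs of member and class were called in ob/ob-Veh against WT-Veh, 1 higher and 1 lower, where 3.53% of all genes tested were called. In ob/ob-Rosi against ob/ob-Veh 8 of 81 were called, all higher, with 3.22% of all genes called. In iWAT 2 of 62 pairs were called in ob/ob-Veh against WT-Veh, both lower (4.23% of all genes), and 5 of 62 in ob/ob-Rosi against ob/ob-Veh, 4 higher and 1 lower (6.13%). With library totals in place of TMM the iWAT Rosi calls were 1 higher and 2 lower, with TMM without ribosomal and mitochondrial genes 4 higher and 0 lower, and with DESeq2 the eWAT ob/ob calls were 1 higher and 2 lower. The shares of all genes called in these alternatives are not given. In the edgeR fit with TMM the eWAT Rosi share lay above its background and the other 3 near theirs. Apart from Gclm in NPVMs and Hmox1 in progenitors, those eWAT Rosi calls were all of Prdx1, in classes summed from the same libraries. The higher share thus came mostly from 1 gene and is not a result for the members as a set. Over all tested pairs of eWAT the median log2 fold change of the members was -0.26 for the ob/ob effect and 0.39 for the Rosi effect, and in iWAT -0.37 and 0.34. By class these medians ran from -0.56 (preadipocytes) to -0.07 (T or NK-like cells) and from -0.01 (mesothelial-like cells) to 1.26 (preadipocytes) in eWAT. In iWAT they ran from -0.73 (ECs) to 0.06 (PVMs) and from 0.008 (T or NK-like cells) to 0.71 (ECs). The medians of all genes lay between -0.15 and 0.09 in every class, so some class medians of the members lay within that range.

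Between ob/ob-Rosi and WT-Veh no member was called in any class of either depot. With edgeR 6 of 81 eWAT pairs and 4 of 62 iWAT pairs had an unadjusted p under 0.05, DESeq2 called 0 and 0, and 0.0355% and 0.0236% of all genes were called. These counts rest on 2 libraries a group, and with 2 against 2 a two-sided exact permutation test cannot go below p = 0.333. Left out in turn, single libraries lowered or raised the counts of the ob/ob and Rosi effects in both depots, as given below. In iWAT the Rosi count rose without either WT-Veh library, neither of which is in that contrast.

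Of the 17 calls, 10 were of Prdx1, the peroxiredoxin that reduces hydrogen peroxide in the cytosol. In eWAT its level was lower in both ob/ob-Veh libraries than in both WT-Veh libraries in 9 of 10 classes, all but LAMs, and higher in both ob/ob-Rosi libraries than in both ob/ob-Veh libraries in 10 of 10. Among all pairs of a class and a gene of at least 10 CPM there, 22.5% were lower in this way in ob/ob-Veh and 20% higher in ob/ob-Rosi. Such shares take each class on its own, and the classes come from the same libraries. They do not give the share of genes that moved so in most classes. The clearest class was T or NK-like cells. Prdx1 stood there at 599 and 486 CPM in WT-Veh, at 209 and 245 in ob/ob-Veh and at 724 and 952 in ob/ob-Rosi. The ob/ob-Veh pair lay below the other 4 libraries without overlap. The log2 fold change was -1.43 for the ob/ob effect (SE 0.34, adjusted p = 0.030) and 1.98 for the Rosi effect (SE 0.345, adjusted p = 0.0061), in a class where 4.48% and 3.94% of genes were called. The make-up of this class shifted as well. At Leiden resolution 2 an ILC2-like cluster of its own appeared in eWAT, with 194 and 139 cells of ob/ob-Veh, 1 and 11 of WT-Veh and 5 and 28 of ob/ob-Rosi, where the T or NK-like class at the resolution used here holds 618 and 475 cells of ob/ob-Veh. With that cluster apart the ob/ob effect was -1.34 and no longer called (adjusted p = 0.064), and the Rosi effect was 1.89 and called (adjusted p = 0.0124). Genes of the response to tissue dissociation, 18 genes that include Fos, Jun and heat shock genes, summed in T or NK-like cells to 5974 and 5040 CPM in WT-Veh, 13357 and 11170 in ob/ob-Veh and 5889 and 5999 in ob/ob-Rosi, with 14 of 18 higher in both ob/ob-Veh libraries and 12 lower in both ob/ob-Rosi libraries.

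Prdx1 rose with Rosi as well in the 3 classes of eWAT named macrophage-like, NPVMs, PVMs and LAMs. NPVMs had 623 and 631 CPM of Prdx1 in WT-Veh, 360 and 447 in ob/ob-Veh and 875 and 1187 in ob/ob-Rosi, with a log2 Rosi effect of 1.42 (SE 0.274, adjusted p = 0.00667). Of the pair of NPVM clusters in eWAT, the one led by Chil3 and Il1b held 134 of 1094 and 61 of 722 cells in ob/ob-Veh and 285 of 895 and 476 of 884 in ob/ob-Rosi. The dissociation genes summed there to 16204 and 13961 CPM in ob/ob-Veh and 6260 and 7324 in ob/ob-Rosi, with 15 of 18 lower in both. The part of these shifts in the NPVM values was not tested. PVMs had 712 and 767 CPM in WT-Veh, 462 and 483 in ob/ob-Veh and 883 and 1106 in ob/ob-Rosi, with an effect of 1.21 (SE 0.249, adjusted p = 0.0433). Both ob/ob-Rosi libraries were the highest of their 6 in each class. In LAMs the WT-Veh libraries, at 1229 and 1371 CPM, overlapped ob/ob-Veh, at 1112 and 1369, and ob/ob-Rosi had 1927 and 2342 (log2 1.00, SE 0.244, adjusted p = 0.0328). The background of calls for Rosi was 5.99%, 1.9% and 2.26% of genes in NPVMs, PVMs and LAMs. ECs rose by a log2 effect of 1.11 (SE 0.254, adjusted p = 0.0397), from 382 and 393 to 726 and 882 CPM, with 641 and 512 in WT-Veh and 3.1% of genes called. B-like cells had the largest fitted effect, 2.10 (SE 0.49, adjusted p = 0.0463), from 298 and 121 CPM to 1237 and 766, and also the fewest cells, 31 and 51 in the ob/ob-Rosi libraries, with 1.01% of genes called.

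The remaining eWAT classes did not pass. Preadipocytes had 514 and 507 CPM in ob/ob-Veh against 743 and 2294 in ob/ob-Rosi, so the 2 Rosi libraries differed more from each other than the lower of them did from ob/ob-Veh (log2 1.63, SE 0.432, adjusted p = 0.0508). Progenitors (0.79), mesothelial-like cells (0.70) and dendritic cell-like cells had positive log2 effects that missed the threshold. Outside T or NK-like cells the ob/ob effect ran from -0.26 in LAMs to -0.83 in B-like cells and was not called. Every Prdx1 effect of both contrasts kept its sign in every tested class of both depots under TMM, DESeq2's size factors, library totals and TMM without ribosomal and mitochondrial genes. The 6 Rosi calls of Prdx1 in eWAT were all lost without ob/ob-Veh replicate 2, and all but that of B-like cells without ob/ob-Veh replicate 1, while the effects lay between 0.78 and 2.94 over all alternatives.

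**Figure D2:**
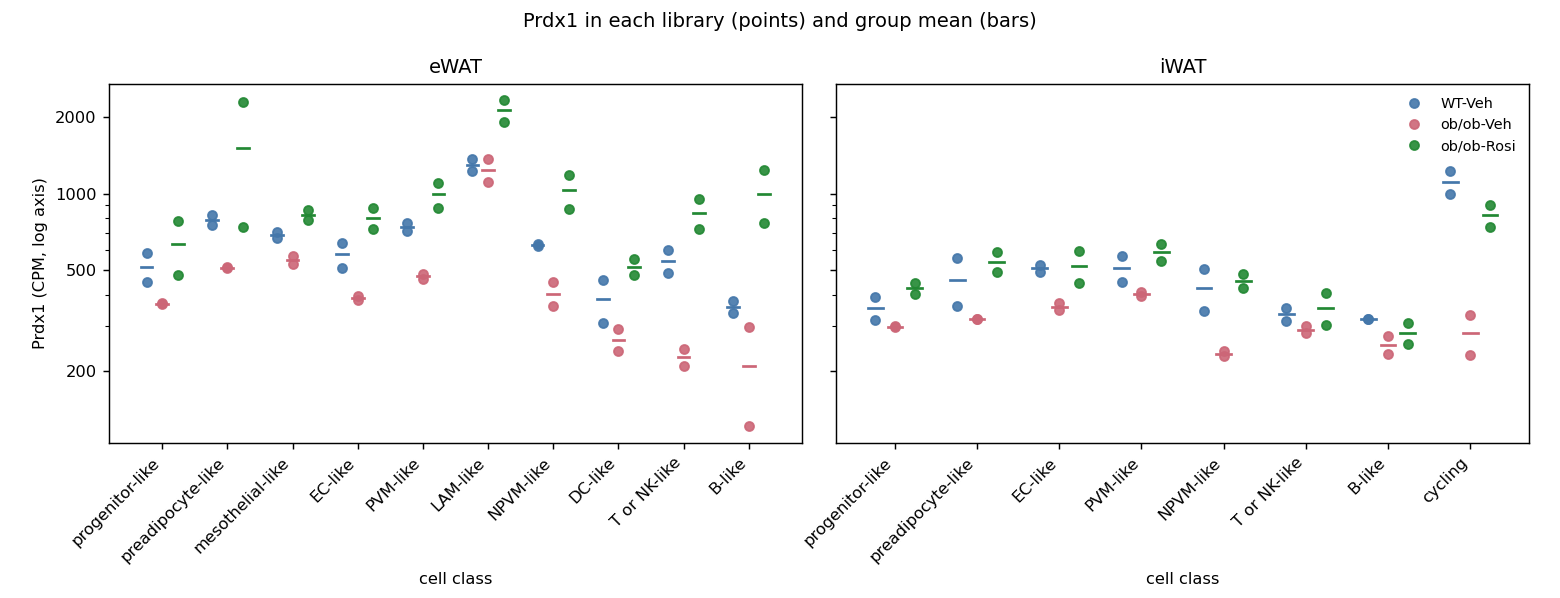
Prdx1 level in each tested class of eWAT and iWAT, in CPM on a log axis, with 1 point per library coloured by group and bars at the group means. In eWAT the ob/ob-Veh libraries are the lowest in 9 of 10 classes and both ob/ob-Rosi libraries lie above them in all 10.

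In iWAT Prdx1 was lower in both ob/ob-Veh libraries than in both WT-Veh libraries in 8 of 8 classes, and higher in both ob/ob-Rosi libraries in 7 of 8, all but B-like cells. Of all pairs of gene and class, 19.1% were lower and 23.0% higher in this way. Cycling cells showed the widest gap, with 1235 and 999 CPM in WT-Veh, 231 and 332 in ob/ob-Veh and 904 and 739 in ob/ob-Rosi. The log2 fold change was -2.45 for the ob/ob effect (SE 0.381, adjusted p = 0.00198) and 2.01 for the Rosi effect (SE 0.376, adjusted p = 0.00493). In this class 20.2% and 14.9% of all genes were called, and the class rests on 45 and 21 cells in the ob/ob-Veh libraries. NPVMs rose from 229 and 240 CPM to 483 and 423 with Rosi (log2 1.37, SE 0.401, adjusted p = 0.0463, with 14.8% of genes called), against 346 and 505 in WT-Veh. The ob/ob effect in NPVMs was -1.25 (SE 0.401, adjusted p = 0.0876). Other transcripts moved in the iWAT NPVMs too. The LAM marker sum was 4761 and 4284 CPM in WT-Veh, 2026 and 3307 in ob/ob-Veh and 4919 and 5055 in ob/ob-Rosi, with 8 of 12 genes higher in both ob/ob-Rosi libraries than in both ob/ob-Veh libraries. The 10 APC markers (4192 and 3570 CPM in ob/ob-Veh, 1564 and 1319 in ob/ob-Rosi), the 10 PVM markers (2943 and 2750, then 1078 and 1265) and 18 genes of the response to tissue dissociation (18627 and 17713, then 8740 and 8107) went down with Rosi, 7, 8 and 14 of their genes in both libraries. A cluster led by Chil3, Itgal and Treml4 made up 15 of 724 and 9 of 455 NPVMs in ob/ob-Veh and 297 of 812 and 194 of 1193 in ob/ob-Rosi. The part of these shifts in the NPVM values of Prdx1, Gclc and Nfe2l2 was not tested. The other 6 classes had ob/ob effects of -0.36 to -0.79 and Rosi effects of 0.58 to 0.81, none of them called.

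Marker transcripts of LAMs moved with Prdx1 in many of these classes. The markers were Trem2, Cd9, Gpnmb, Spp1, Fabp5, Cd63, Lgals3, Mmp12, Itgax, Ctsk, Plin2 and Lpl. Plin2 and Lpl were also in the list of PPAR targets, and Lpl among the preadipocyte markers. Their sum in other classes is therefore not a measure of macrophage RNA alone. LAMs, which hold the highest Prdx1 level, made up 4992 and 1765 cells of the eWAT libraries labelled WT-Veh, 61 and 92 of ob/ob-Veh and 3154 and 3571 of ob/ob-Rosi. The 12 LAM markers summed to 5248 and 4071 CPM in eWAT T or NK-like cells of WT-Veh, 874 and 1073 in ob/ob-Veh and 6487 and 6315 in ob/ob-Rosi, with none of the 12 at 0 in all libraries, 11 lower in both ob/ob-Veh libraries and 12 higher in both ob/ob-Rosi libraries. The sum was also lowest in both ob/ob-Veh libraries of the eWAT ECs (3210 and 3392 CPM, against 9979 and 9300 in WT-Veh and 6864 and 7492 in ob/ob-Rosi), of the eWAT B-like cells (445 and 1168, against 3927 and 4036 in WT-Veh and 6657 and 4662 in ob/ob-Rosi), of the PVMs and NPVMs of eWAT, and of the iWAT cycling cells (1162 and 4083, against 17532 and 11576 in WT-Veh and 10687 and 8936 in ob/ob-Rosi). Its part in the Prdx1 result was not tested. Within LAMs themselves Prdx1 rose with Rosi, as given above, while their marker sum went from 13907 and 12828 to 22704 and 22315 CPM. The class pools 3 clusters, and the one led by Mmp12 and Gpnmb, the only one with LAM markers among its top 10 genes, was 5 of 61 and 15 of 92 LAMs in ob/ob-Veh and 820 of 3154 and 1356 of 3571 in ob/ob-Rosi, so the make-up of the class shifted beside Prdx1. In iWAT progenitors the marker sum stayed between 1362 and 1573 CPM in the 6 libraries, and Prdx1 was 317 and 393 CPM in WT-Veh, 299 and 300 in ob/ob-Veh and 443 and 403 in ob/ob-Rosi. Over all tested classes, both ob/ob-Veh libraries had the lowest LAM sum of the 6 libraries in 10 of 10 eWAT and 7 of 8 iWAT classes and the highest dissociation sum in 9 of 10 and 5 of 8. They had the highest sum of 7 genes of mature adipocytes in 7 of 10 and 1 of 8 classes, of APC markers in 2 of 10 and 6 of 8, and of PVM markers in 2 of 10 and 5 of 8. The part of these transcripts in the levels of the members or of other pathway genes was not tested.

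Glutamate-cysteine ligase was the one enzyme with both subunits among the members. Gclm, the modifier subunit, had negative ob/ob and positive Rosi effects in every class where it was tested, 10 in eWAT and 7 in iWAT, under all 4 scalings. Its eWAT NPVM level was 35.4 and 61.9 CPM in WT-Veh, 22.0 and 28.5 in ob/ob-Veh and 44.4 and 61.7 in ob/ob-Rosi. Both ob/ob-Veh libraries were the lowest, and the Rosi effect was called at a log2 of 1.16 (SE 0.312, adjusted p = 0.0389), the ob/ob effect not at -1.06 (SE 0.322, adjusted p = 0.0723). In iWAT PVMs Gclm was 26.3 and 31.0 CPM, 17.5 and 21.0, and 32.1 and 34.4, with a called Rosi effect of 0.98 (SE 0.246, adjusted p = 0.0409, 11.8% of genes called). Other values moved beside both calls. In eWAT NPVMs the LAM marker sum went from 2885 and 4630 CPM in ob/ob-Veh to 9491 and 8016 in ob/ob-Rosi, LAMs being the class with the second highest Gclm level, next to the cluster shift given above. At Leiden resolution 2, where a cluster of 625 and 387 NPVMs of ob/ob-Veh held at most 35 cells of any other library, the effect was 1.17 and just missed the threshold (adjusted p = 0.0511). In iWAT PVMs the LAM sum was 2939 and 3054 CPM in WT-Veh, 1449 and 1481 in ob/ob-Veh and 3566 and 3631 in ob/ob-Rosi, with 7 of 12 genes higher in both ob/ob-Rosi libraries, and the 10 APC markers went from 4100 and 3614 CPM to 1421 and 1255. Their part was not tested. The eWAT PVM values, -0.81 and 0.85 (adjusted p = 0.0657 and 0.0679), stood just outside the threshold. In ECs, where Gclm is highest, the 6 eWAT libraries ran from 92.0 to 122 CPM with all groups overlapping, and the effects were -0.26 and 0.14.

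Gclc, the catalytic subunit, had an ob/ob effect above 0 in 10 of 10 eWAT classes under all 4 scalings, with both ob/ob-Veh libraries above both WT-Veh libraries in 7 of 10 (33.5% of all pairs of gene and class lay so), and none was called. In iWAT both lay above in 3 of 8 classes, against 33.2% of such pairs. Both ob/ob-Rosi libraries were below both ob/ob-Veh libraries in 6 of 10 eWAT classes, as were 28.1% of such pairs. Progenitors had 13.7 and 21.2 CPM in WT-Veh, 38.2 and 52.3 in ob/ob-Veh and 10.6 and 35.0 in ob/ob-Rosi (log2 1.28, SE 0.402, adjusted p = 0.120). The single Gclc call was a fall with Rosi in iWAT NPVMs. They had 100 and 61.9 CPM in WT-Veh, 86.3 and 144 in ob/ob-Veh and 41.2 and 32.7 in ob/ob-Rosi, a log2 change of -1.22 (SE 0.346, adjusted p = 0.042), and -0.72 without ob/ob-Veh replicate 2. The APC, PVM and dissociation sums of these NPVMs, given above, were also highest in ob/ob-Veh and lower with Rosi. Both ob/ob-Rosi libraries were lower in 7 of 8 iWAT classes, as were 40.0% of all pairs of gene and class. Whether Gclc and Gclm differed from each other was not tested.

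**Figure D3:**
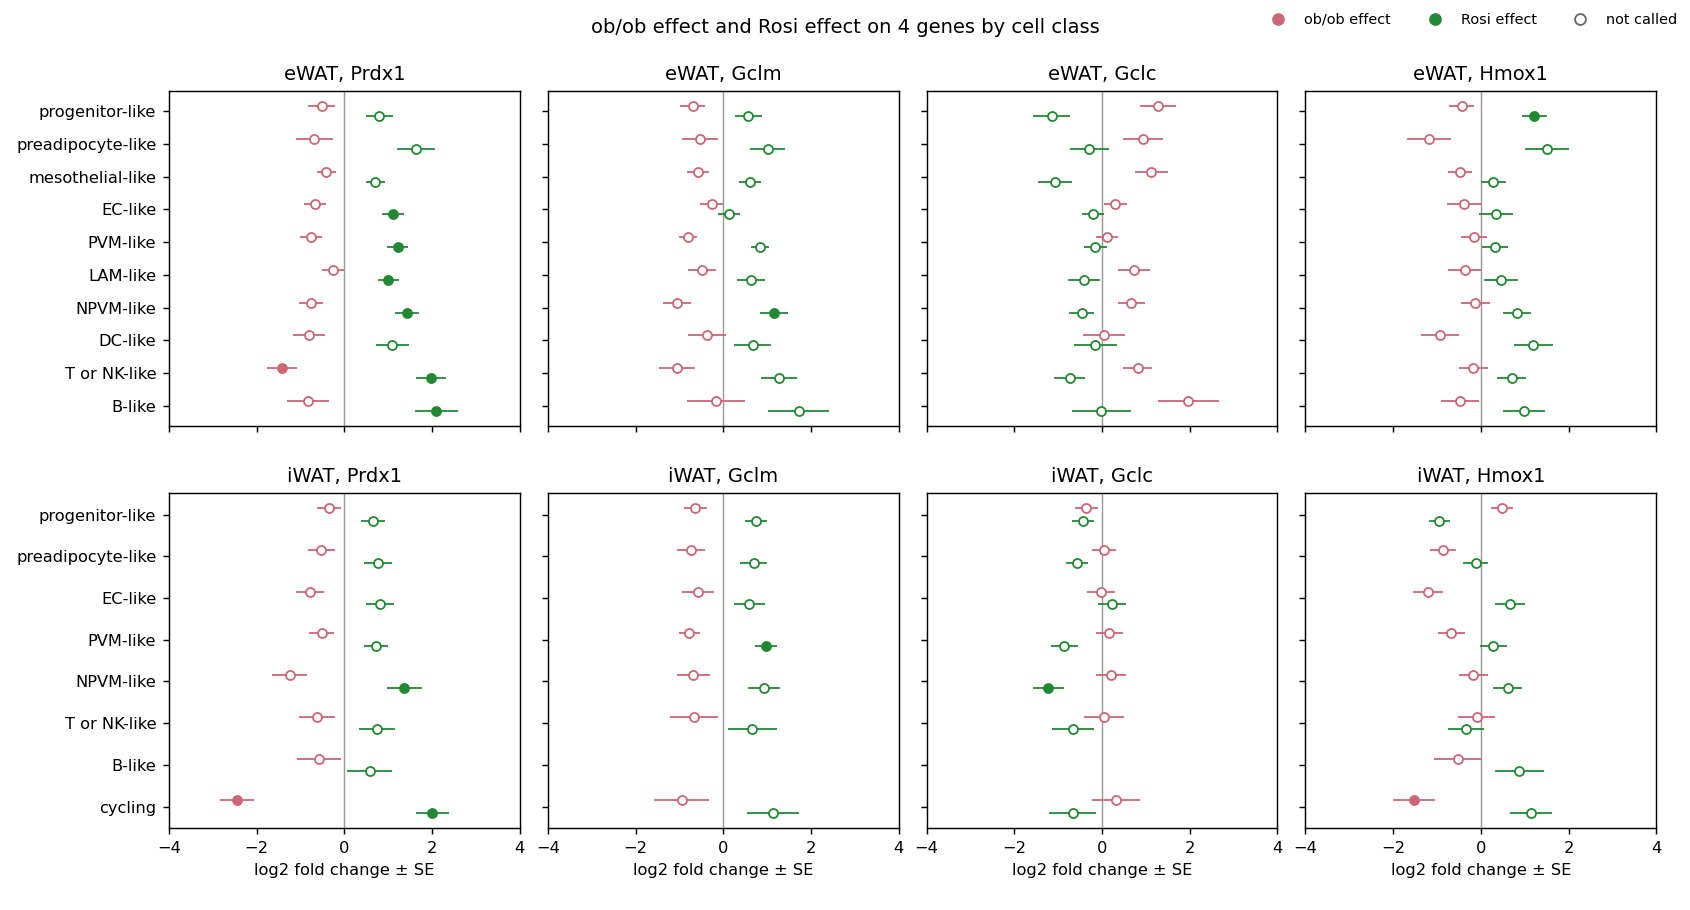
Log2 fold changes of Prdx1, Gclm, Gclc and Hmox1 by cell class in eWAT (top) and iWAT (bottom), for the ob/ob effect (ob/ob-Veh over WT-Veh) and the Rosi effect (ob/ob-Rosi over ob/ob-Veh), with bars of 1 SE and filled points where the change was called. Prdx1 and Gclm lie below 0 in the ob/ob effect and above 0 in the Rosi effect in every class drawn, and Gclc lies above 0 in the ob/ob effect of every eWAT class.

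Slc7a11, the cystine importer that feeds this enzyme, was called once, in eWAT LAMs, with a log2 ob/ob effect of 1.99 (SE 0.451, adjusted p = 0.0252, 2.49% of genes called). The value rested on 1 library. LAMs had 10.5 and 7.66 CPM in WT-Veh, 12.4 and 59.9 in ob/ob-Veh and 18.1 and 11.2 in ob/ob-Rosi, and the ob/ob-Veh values are 3 and 34 UMIs in all. Without ob/ob-Veh replicate 2 the effect was 0.27 and was not called. In NPVMs, where the gene is highest in eWAT, it ran from 72.5 to 167 CPM with an ob/ob effect of 0.58 and no call. In iWAT NPVMs the WT-Veh libraries differed most, at 284 and 74.9 CPM.

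Hmox1, which opens the haem ring, was called in 2 classes. In eWAT progenitors it was 61.6 and 66.0 CPM in WT-Veh, 43.7 and 52.7 in ob/ob-Veh and 92.0 and 131 in ob/ob-Rosi. The ob/ob-Rosi libraries were the 2 highest, and the Rosi effect was 1.22 on the log2 scale (SE 0.282, adjusted p = 0.0358, 1.55% of genes called). This call held in 9 of 17 alternatives and was lost in 8. It was lost at both other clustering resolutions, with effects of 0.88 and 0.70, and the split of the eWAT APCs of ob/ob-Veh mice into progenitors and preadipocytes itself depended on the resolution. It was also lost with library totals (1.18), without the cells of shared barcodes (0.91), without WT-Veh replicate 1 (1.21), without either ob/ob-Veh library (1.18 and 1.26) and without ob/ob-Rosi replicate 2 (1.00). In eWAT preadipocytes 129 and 201 CPM in WT-Veh stood against 74.0 and 77.0 in ob/ob-Veh and 84.0 and 327 in ob/ob-Rosi, and neither effect passed (adjusted p = 0.215 and 0.116). The Rosi effect of Hmox1 was above 0 in 10 of 10 eWAT classes under all 4 scalings. Both ob/ob-Rosi libraries were above both ob/ob-Veh libraries in 4 of 10 classes, and the libraries overlapped in 6. Of all pairs of gene and class, 20% were higher in this way.

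In iWAT progenitors the order was turned. Hmox1 was 82.3 and 64.6 CPM in WT-Veh, 107 and 109 in ob/ob-Veh and 53.6 and 47.7 in ob/ob-Rosi, with a log2 Rosi effect of -0.95 (SE 0.239, adjusted p = 0.0606). The difference between the depots in this effect was tested itself and was -2.17 (iWAT minus eWAT, SE 0.346, adjusted p = 0.0159), the only difference between depots called among the members in the 7 classes present in both, where 0.243% of all genes were called. The test took the libraries of the depots as independent, and the labels do not say whether eWAT and iWAT libraries came from the same mice. PVM markers, 10 genes of the class richest in Hmox1, summed to 298 and 167 CPM in iWAT progenitors of WT-Veh, 723 and 694 in ob/ob-Veh and 273 and 269 in ob/ob-Rosi, with 8 of 10 lower in both ob/ob-Rosi libraries than in both ob/ob-Veh libraries. In eWAT progenitors the sum was 296 and 198, 175 and 280, and 293 and 187 CPM. LAM markers, of the class second in Hmox1, summed in eWAT progenitors to 3569 and 3294 CPM in WT-Veh, 1424 and 1792 in ob/ob-Veh and 3668 and 4309 in ob/ob-Rosi, with 11 of 12 higher in both ob/ob-Rosi libraries, against the 1362 to 1573 CPM of iWAT progenitors. The part of these transcripts in the Hmox1 values was not tested.

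PVMs, the main Hmox1 cells, showed little movement in eWAT. Their level was 1313 and 1544 CPM in WT-Veh, 1298 and 1464 in ob/ob-Veh and 1168 and 1951 in ob/ob-Rosi, all 3 groups overlapping, with effects of -0.16 (SE 0.302) and 0.32 (SE 0.302). In iWAT PVMs the level was 1282 and 1645, 979 and 1113, and 1044 and 1197 CPM, and the ob/ob effect was -0.67 (SE 0.308, adjusted p = 0.208). The second Hmox1 call was a fall in iWAT cycling cells of ob/ob-Veh mice, 129 and 229 CPM against 287 and 437 in WT-Veh (log2 -1.52, SE 0.481, adjusted p = 0.0432), where 20.2% of genes were called and ob/ob-Veh held 45 and 21 cells. In this mixed class the LAM marker sum was lower in ob/ob-Veh, as given above, the APC markers summed to 261 and 958 CPM in WT-Veh and 6246 and 2002 in ob/ob-Veh (9 of 10 higher in both), and the dissociation genes to 4571 and 5286 and to 14586 and 13817 (14 of 18 higher in both). Their part was not tested. iWAT ECs had 243 and 266 CPM against 154 and 121 (log2 -1.20, SE 0.344, adjusted p = 0.124). Between PVMs and preadipocytes of eWAT the ob/ob effects differed by 1.11 (SE 0.357, adjusted p = 0.0795), the closest of the members to a call between classes. None of the 38 differences of members between these classes was called with edgeR, 7 having an unadjusted p under 0.05, DESeq2 called 0, and 5.0% of all genes were called.

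**Figure D4:**
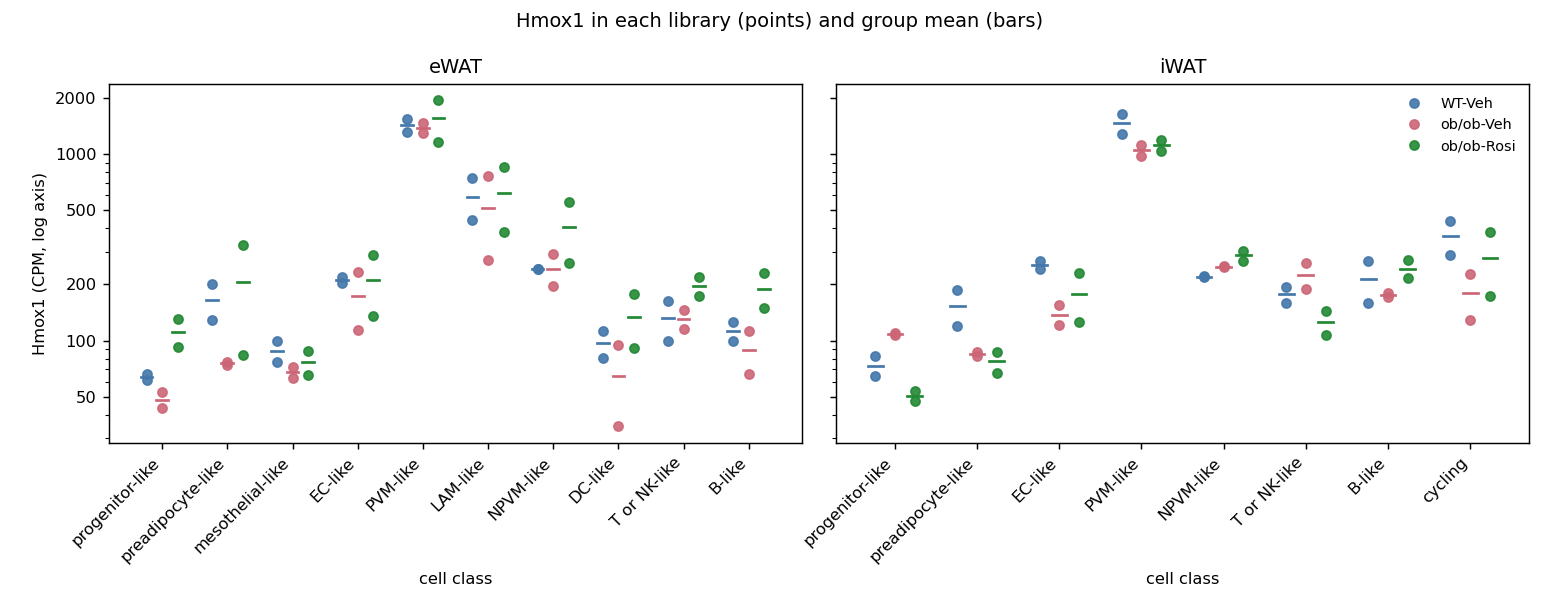
Hmox1 level in each tested class of eWAT and iWAT, in CPM on a log axis, with 1 point per library coloured by group and bars at the group means. PVMs lie between 979 and 1951 CPM in all 12 libraries, and the ob/ob-Rosi libraries are the highest in eWAT progenitors and the lowest in iWAT progenitors.

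Nfe2l2, the gene of NRF2, was called once, in iWAT NPVMs, where it rose with Rosi from 127 and 153 CPM to 264 and 192, next to 194 and 183 in WT-Veh (log2 1.12, SE 0.334, adjusted p = 0.0485). All 4 of the called iWAT NPVM and PVM Rosi effects stand in classes where 14.8% and 11.8% of all genes were called. In eWAT NPVMs the Nfe2l2 effect was 0.18 (SE 0.265). In eWAT preadipocytes and progenitors both ob/ob-Veh libraries were the highest, with 185 and 159 CPM against 118 and 114 in preadipocytes of WT-Veh and 107 and 113 of ob/ob-Rosi, and with effects of 0.51 and -0.60 (adjusted p = 0.267 and 0.191) these were not called.

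Nqo1, the quinone reductase that is widely read as an NRF2 target, was low outside the ECs of both depots and the preadipocytes of eWAT and was called nowhere. In eWAT ECs it was 16.5 and 25.9 CPM in WT-Veh, 15.8 and 10.3 in ob/ob-Veh and 21.1 and 18.9 in ob/ob-Rosi, and in iWAT ECs 28.9 and 42.9, 22.5 and 12.6, and 54.5 and 17.1. The ob/ob-Veh pair was the lowest in the eWAT ECs and overlapped the Rosi pair in the iWAT ECs. The effects were -0.90 and 0.71 in eWAT and -1.51 and 1.51 in iWAT, with adjusted p of 0.18 to 0.31. Its sign was the same in every class with a fit, under all 4 scalings. Gsta4, in eWAT mesothelial-like cells, was 159 and 268 CPM, 83.9 and 121, and 181 and 305. Both ob/ob-Veh libraries were the lowest, and effects of -1.14 (SE 0.312, adjusted p = 0.0712) and 1.37 (SE 0.314, adjusted p = 0.0603) missed the threshold. The eWAT ob/ob-Veh libraries held 594 and 493 mesothelial-like cells, the others 51 to 150.

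Srxn1 and Txnrd1, which serve the peroxiredoxin cycle around Prdx1, did not pass in any class. Srxn1 came closest to the threshold in eWAT ECs (-0.83 and 1.15, adjusted p = 0.238 and 0.120) and NPVMs (-0.70 and 0.83, adjusted p = 0.166 and 0.0862). ECs had 40.6 and 18.9 CPM of Srxn1 in WT-Veh, 16.5 and 16.9 in ob/ob-Veh and 32.6 and 38.3 in ob/ob-Rosi, with the ob/ob-Veh pair lowest. Txnrd1 effects lay between -0.58 and 0.74 in all tested classes, and in eWAT preadipocytes its 6 libraries spanned only 62.4 to 78.9 CPM. For Srxn1, Txnrd1, Nfe2l2, Slc7a11, Hmox1 and Gclc the direction in 1 or more classes changed with the scaling. The ob/ob effect of Hmox1 was below 0 in 10 of 10 eWAT classes and in 8 with library totals, and in iWAT in 7 of 8 and in 5. The Rosi effect of Gclc was below 0 in 10 of 10 eWAT classes and in 9 under each of the other 3 scalings. With library totals the class medians of all iWAT genes reached 0.426 (log2) in the ob/ob effect and -0.537 in the Rosi effect. With TMM they lay between -0.155 and 0.0341 and between -0.118 and 0.084.

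Other genes of the pathway, 73 in 7 lists, were counted in the same fits, where 3.53% (ob/ob effect) and 3.22% (Rosi effect) of all eWAT genes tested were called. In eWAT the genes for haem and iron were called lower in ob/ob-Veh in 24 of 82 pairs of gene and class and higher in 1, and higher with Rosi in 18 and lower in 1. The xenobiotic list, of aldo-keto and carbonyl reductases and related enzymes, had 17 of 86 lower and 3 higher, and 17 higher and 0 lower with Rosi. Thioredoxins and peroxiredoxins other than the members had 6 of 103 lower and then 8 higher, with none the other way, and glutathione genes 7 of 194 lower and 1 higher, and 4 higher and 1 lower. The genes that control NRF2 had 2 of 89 higher in ob/ob-Veh and 3 lower with Rosi, NADPH supply 1 of 55 lower in each contrast and superoxide dismutases and catalase 0 of 38 in both with edgeR (2 and 9 at an unadjusted p under 0.05) and 0 with DESeq2. For the other lists DESeq2 called more, 38 and 33 for haem and iron in the ob/ob and the Rosi effect, 21 and 21 for the xenobiotic list, 16 and 15 for thioredoxins and peroxiredoxins, 15 and 12 for glutathione and 3 and 7 for NADPH supply, with NRF2 control at 2 and 5. The shares of 3.53% and 3.22% are those of edgeR. The share of all genes called by DESeq2 is not given, so its counts have no background here. Across the 7 lists the median log2 change was -0.16 to -0.50 in every eWAT class for the ob/ob effect and 0.17 to 0.68 for Rosi, against medians of all genes between -0.09 and 0.09.

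For progenitors, preadipocytes, PVMs and ECs the 3 called pathway genes of largest change in each effect, or fewer where fewer were called, were named. Akr1b8, an aldo-keto reductase, was 25.3 and 36.1 CPM in eWAT ECs of WT-Veh, 4.13 and 5.73 in ob/ob-Veh and 29.5 and 41.4 in ob/ob-Rosi, with log2 effects of -2.70 (SE 0.374, adjusted p = 0.0029) and 2.86 (SE 0.363, adjusted p = 0.00142). It was also called in eWAT PVMs (-2.52 and 2.70, adjusted p = 0.0105 and 0.00846), where the carbonyl reductase Cbr1 had -1.68 and 1.54, and in the ob/ob effect of eWAT progenitors (-1.22). Hpgds, a glutathione-dependent prostaglandin D synthase that was listed with haem and iron, was lower in ob/ob-Veh in eWAT ECs (log2 -2.97) and preadipocytes (-2.94) and higher with Rosi (2.50 and 2.43). Ftl1, the ferritin light chain, fell in ECs from 5692 and 4374 to 1233 and 1346 CPM and was 3995 and 5074 in ob/ob-Rosi (-2.07 and 1.87, adjusted p = 0.00167 and 0.00285), and had -1.04 in progenitors. Gsto1, an omega-class glutathione transferase, was called in eWAT preadipocytes with Rosi (1.93, adjusted p = 0.0498), with 18.8 and 70.6 CPM against 9.31 and 15.5 in ob/ob-Veh. Hpgds and Ftl1 are expressed by macrophages as well, and the LAM marker sum moved beside them in ECs and progenitors, as given above, and in eWAT preadipocytes, where it was 6827 and 6749 CPM in WT-Veh, 2990 and 2769 in ob/ob-Veh and 6697 and 6915 in ob/ob-Rosi, with 11 of 12 lower and then 12 of 12 higher in both libraries. Its part was not tested.

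In the other direction Gstm5, a glutathione transferase, was higher in eWAT preadipocytes of ob/ob-Veh, at 290 and 389 CPM against 71.7 and 86.3 in WT-Veh and 68.4 and 85.3 in ob/ob-Rosi (log2 2.04 and -2.07, adjusted p = 0.00184 and 0.00159). Ugdh, which makes UDP-glucuronate, rose there too (1.55, adjusted p = 0.027). Maff, a small MAF protein, fell with Rosi in eWAT PVMs, from 82.1 and 90.5 to 32.0 and 19.9 CPM (-1.59, adjusted p = 0.0187). Esd, an esterase, changed in eWAT progenitors by -1.26 and 1.35 (adjusted p = 0.0348 and 0.029). In eWAT PVMs Gpx3, a secreted glutathione peroxidase, fell by 1.99 on the log2 scale in ob/ob-Veh, and in iWAT ECs it rose by 2.33 (adjusted p = 0.0309 and 0.0482). In these iWAT ECs the APC markers summed to 1823 and 777 CPM in WT-Veh and 4003 and 3160 in ob/ob-Veh (8 of 10 higher in both), and RNA of mature adipocytes to 204 and 145 and to 569 and 509 (5 of 7 higher in both). The dissociation genes were also higher in ob/ob-Veh in these eWAT classes, with 20053 and 16742 CPM in eWAT preadipocytes against 8789 and 9975 in WT-Veh and 9560 and 6244 in ob/ob-Rosi. Their part in these changes was not tested.

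In iWAT, where 6.13% of all genes were called in the Rosi effect and 4.23% in the ob/ob effect, the counts were 14 higher and 1 lower with Rosi for thioredoxins and peroxiredoxins (82 pairs), 11 and 3 for haem and iron (64), 8 and 4 for glutathione (152), 6 and 1 for the xenobiotic list (68), 3 and 1 for NADPH supply (42), 2 and 1 for NRF2 control (67) and 2 and 0 for superoxide and catalase (28). For the ob/ob effect they were 1 higher and 9 lower for thioredoxins and peroxiredoxins, 4 and 7 for haem and iron, 10 and 9 for glutathione, 2 and 5 for the xenobiotic list, 0 and 2 for NADPH supply, 1 and 2 for NRF2 control and 1 and 0 for superoxide and catalase. Taken in this order, DESeq2 called 23, 25, 21, 12, 6, 3 and 2 pairs of the lists with Rosi and 18, 27, 26, 14, 4, 3 and 3 in the ob/ob effect. As in eWAT, no share of all genes called by DESeq2 is given beside them. The largest fitted change of a named pathway gene was that of Gsta3, a relative of Gsta4, in iWAT progenitors. It had 8.98 and 86.3 CPM in WT-Veh, 1.28 and 2.48 in ob/ob-Veh and 15.1 and 18.1 in ob/ob-Rosi, with log2 effects of -5.07 (SE 0.776, adjusted p = 0.0189) and 3.37 (SE 0.75, adjusted p = 0.0416). The WT-Veh libraries differed from each other by more than the lower of them did from ob/ob-Veh. In preadipocytes it rose with Rosi by 3.28 (adjusted p = 0.0315), and reads of close family members may be split between them. Prdx5, a mitochondrial peroxiredoxin, rose with Rosi in progenitors from 104 and 99.2 to 325 and 362 CPM (log2 1.91, SE 0.289, adjusted p = 0.0101) and in preadipocytes from 57.9 and 53.5 to 190 and 283 (2.09, SE 0.343, adjusted p = 0.0369). Prdx4, of the endoplasmic reticulum, rose in PVMs from 14.4 and 30.9 to 93.6 and 104 CPM (2.33, SE 0.386, adjusted p = 0.0163). Mgst3, a microsomal glutathione transferase, was lower in ob/ob-Veh in PVMs (log2 -2.74) and preadipocytes (-2.57), and in PVMs rose by 2.73 with Rosi. Akr1b8 rose with Rosi in PVMs (2.35) and progenitors (2.13), and Blvrb, a biliverdin reductase, in ECs from 25.7 and 40.6 to 113 and 140 CPM (2.10, adjusted p = 0.0475). In ob/ob-Veh Gstm2 (2.52) and Gpx8 (2.06) were higher in PVMs, where the APC marker sum was higher as well, and Maff was lower in progenitors (-1.70). Cd163, the haptoglobin-haemoglobin receptor and a PVM marker, was higher in ob/ob-Veh progenitors (2.00) and preadipocytes (2.56, and -1.88 with Rosi), where the PVM marker sum was higher too.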

How the data were processed

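The authors' 12 libraries were 10x Genomics 3′ libraries of SVF cells, 1 matrix per library. The authors deposited raw UMI counts of each gene in each barcode, neither normalized nor pooled. No barcode of the iWAT matrices exceeded 21957 UMIs or 24.982% mitochondrial UMIs, while the eWAT matrices reached 149572 and 98.341%. The iWAT matrices thus seem already cut at the upper limits used below, and the UMI totals given for the depots cover unlike sets of barcodes. The submitters' processing notes name bcl2fastq 2.19.1.403, Cell Ranger 3.0.2 and mm10. No removal of free RNA is stated in the sources used here, and none was applied, so transcripts of abundant cells can count in other classes. The iWAT matrices list symbols and the eWAT matrices symbols with identifiers.

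Cells with 700 to 22000 UMIs, 200 to 6000 genes and under 25% mitochondrial UMIs were clustered per depot (scanpy 1.11.5, python-igraph 0.11.9, scikit-learn 1.9.0, Python 3.11.15; 2000 variable genes without the members and the pathway genes, 25 components, 20 neighbours, Leiden resolution 1; APCs again with 15 components at 0.6). Clusters were named from marker lists. Details of the naming were adjusted after the clusters were seen and before groups were compared. Doublets stayed in, and leaving out those that Scrublet calls was an alternative. UMIs were summed per library and class (at least 20 cells) and fitted per class with edgeR 4.0.16 in R 4.3.3 (TMM, filterByExpr, quasi-likelihood test, no replicate block, 3 residual degrees of freedom), with adjustment over all genes of the class. DESeq2 1.42.0 was an alternative. Differences between depots and classes were tested as interactions, with library as a block between classes and no block for mouse between depots.

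The members, lists and tests were chosen with earlier results of these data known. The 10 members were tested in every class where they passed the low-count filter (Gsta4 in 3 eWAT and 1 iWAT classes, Nqo1 in 3 and 4), and the text gives values for those the results turn on. Of the pathway lists it names the 3 genes of largest change among those called in progenitors, preadipocytes, PVMs and ECs. The genes most like a member are the 3 of highest correlation, of which 1 is not reported here. Each library is labelled a biological replicate, and replicates of a group differed by more than sampling noise.

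The fits were tested on simulated counts of 4 comparisons. In ob/ob-Veh against WT-Veh, 4-fold changes were recovered in 86.7% (eWAT preadipocytes, 12760 genes), 93.9% (eWAT PVMs, 11033 genes), 66% (iWAT preadipocytes, 11581 genes) and 77.3% (iWAT PVMs, 12079 genes), and 2-fold changes in 26%, 27.3%, 9.47% and 19.6%, so most changes of 2-fold or less would be missed.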

Additional observations from a re-analysis of the deposited data

Results flagged for a closer look

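The Rosi effect on Hmox1 in progenitor-like cells differed between the depots by a test of the difference itself: it was 1.22 on the log2 scale in eWAT and -0.95 in iWAT, a difference of -2.17 (iWAT minus eWAT, SE 0.346, edgeR adjusted p = 0.0159). Both eWAT ob/ob-Rosi libraries lay above both ob/ob-Veh libraries, and both iWAT ob/ob-Rosi libraries below. The call was lost without eWAT ob/ob-Veh replicate 1, eWAT ob/ob-Veh replicate 2, eWAT ob/ob-Rosi replicate 2, iWAT ob/ob-Veh replicate 1 or iWAT ob/ob-Rosi replicate 2. Each library held cells of 1 depot, so a difference between depots cannot be told apart from one between their preparations. The authors state that all samples were handled in a single batch and sequenced together. Whether libraries of the depots came from the same mice is not labelled, and the test took them as independent.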

How the results depend on the processing

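Counts of called members changed with the processing, and no direction of a called member was reversed under any alternative run. The counts are of pairs of member and class. The pairs tested and the share of all genes called are not given for the alternatives or for fits with a library left out. A change in a count therefore cannot be told apart from a change over all genes. In eWAT the 2 calls of the ob/ob effect became 9 without a filter on low counts and 9 at Leiden resolution 2, 0 with cells thinned to 700 UMIs and 1 with doublets removed. The 8 calls of the eWAT Rosi effect became 13 with DESeq2, 5 with library totals, 19 without the filter and 5 thinned. In iWAT the 2 calls of the ob/ob effect became 4 with DESeq2, 1 with library totals, 5 without the filter, 1 thinned, and 0 with at least 50 cells per sum, at resolution 0.5, at resolution 2 or without cells of shared barcodes. The 5 calls of the iWAT Rosi effect became 3 with library totals, thinned or at resolution 2, 9 without the filter and 1 without cells of shared barcodes. Without the filter the eWAT comparison of Rosi with WT-Veh had 1 call, the difference between depots 3 and that between classes 4. Both iWAT ob/ob calls lie in cycling cells, which had no fit in those last 4 alternatives: there was no such cluster at resolution 0.5, and a library of ob/ob-Veh was under the minimum of cells in the others. The other causes were not tested. Both removing cells of shared barcodes and pooling the APCs were chosen after seeing the data.

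With each library left out in turn, the counts ran from 0 to 5 (eWAT ob/ob effect), 0 to 20 (eWAT Rosi), 0 to 7 (iWAT ob/ob), 0 to 10 (iWAT Rosi), 0 to 1 (iWAT Rosi against WT-Veh), 0 to 1 (depots) and 0 to 2 (classes), where the spread of a lone library was assumed equal to that of the other groups. The eWAT ob/ob count was 0 without ob/ob-Veh replicate 2, 1 without ob/ob-Veh replicate 1 or WT-Veh replicate 2 and 5 without either ob/ob-Rosi library. The eWAT Rosi count was 0 and 1 without ob/ob-Veh replicate 2 and 1, 20 without ob/ob-Rosi replicate 1 and 2 without its replicate 2. In iWAT the ob/ob count was 7 without WT-Veh replicate 1 and 0 and 1 without ob/ob-Veh replicate 1 and 2. The Rosi count there was 10 and 9 without WT-Veh replicate 1 and 2, 0 without ob/ob-Veh replicate 1 and 1 without any other ob/ob library. The 1 call of iWAT Rosi against WT-Veh came without WT-Veh replicate 2. Between classes there were 2 calls without eWAT WT-Veh replicate 1 and 1 without its replicate 2, without eWAT ob/ob-Rosi replicate 1 or without iWAT WT-Veh replicate 1.

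Replicate numbers were not treated as pairs: deviations of same-numbered samples correlated at -0.0857 to 0.471 in eWAT (24 of 30 over 0.1) and -0.124 to 0.706 in iWAT (11 of 24). With a replicate block, 7 and 15 pairs of member and class were called in eWAT and 2 and 7 in iWAT, and the 17 calls were kept. Of these 17, 9 were kept with library totals, 7 of the 16 with a fit with thinning and 10 of the 14 with a fit without cells of shared barcodes.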

Other observations

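Over 136 sums of a library and class, genes most like Hmox1 included the macrophage genes C1qc (Pearson r = 0.88 of log2(CPM + 1)) and C1qa (0.87). Those most like Prdx1 were Akr1a1 (0.83), Cstb (0.82) and Esd (0.81), those most like Gclm Rit1 (0.80), Dgcr6 (0.78) and Ccdc124 (0.75), and those most like Slc7a11 Clec4e (0.82), Pilra (0.80) and Gpr35 (0.77). Nqo1 was most like Gng11 (0.78), Crip2 (0.77) and Tm4sf1 (0.77), and Gsta4 most like Fmod (0.81), Muc16 (0.80) and Igfbp2 (0.79). The leading genes were less alike for Txnrd1 (Rab8b, 0.75), Srxn1 (Vat1, 0.69), Gclc (Mat2a, 0.63) and Nfe2l2 (6430548M08Rik, 0.62). Between members the highest value was 0.55, for Srxn1 and Txnrd1. The sums share libraries and classes, so these values are descriptions of place and not of response.

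Other transcripts moved beside the members, and their part was not tested. ATF4 targets, 10 genes of the amino acid response, which also drives Slc7a11, summed to 381 and 320 CPM in eWAT NPVMs of WT-Veh, 641 and 478 in ob/ob-Veh and 323 and 335 in ob/ob-Rosi. PPAR targets, 15 genes, summed to 6173 and 7338 CPM in eWAT preadipocytes of WT-Veh, 3187 and 3238 in ob/ob-Veh and 4364 and 4483 in ob/ob-Rosi. RNA of mature adipocytes, 7 genes, was 49.4 and 52.3 CPM in eWAT ECs of WT-Veh, 1758 and 1407 in ob/ob-Veh and 27.1 and 25.2 in ob/ob-Rosi. Red cell RNA, 5 genes of globins and haem synthesis, was highest in the ob/ob-Veh libraries of eWAT PVMs, at 141 and 219 CPM, with 105 and 7.49 in WT-Veh and 121 and 31.1 in ob/ob-Rosi. In iWAT PVMs the 10 APC markers summed to 454 and 399 CPM in WT-Veh, 4100 and 3614 in ob/ob-Veh and 1421 and 1255 in ob/ob-Rosi.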
